A study of Mus musculus with 5 samples.

Results

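The insulin-like growth factor (IGF) system was represented by 10 genes: the ligands *Igf1* and *Igf2*, the receptors *Igf1r* and *Igf2r*, and the binding proteins *Igfbp2* to *Igfbp7*. They were chosen by name, as the system to which the study's shared hallmark of low and high dose belongs, out of 18193 genes that the arrays name. The arrays hold 28 probe sets that name 1 of these genes alone, of 45101 in all, and a further probe set names *Igf2r* together with *Airn*. RNA came from optic nerves of C57BL/6 mice aged P35 to P45, kept for 3 days in organotypic culture with LY294002, a small-molecule inhibitor of PI3K. The L-LY29 group has 3 arrays labelled 0.5 µM, and the H-LY29 group has 2 arrays labelled 50 µM. For adult nerves the study's text gives a higher low dose than the labels, and it is not settled which of them applies to these arrays. Nerves of both doses were dissected with the retina attached, cleaned of membranes and cultured in a medium with horse serum. The study's text gives the nerves and mice of its transcriptomic work in total, but no source read here says how they were split over the arrays, so the error behind each p-value is that among the arrays, which may be technical. Control arrays were not analysed here, and every difference is the log2 signal in L-LY29 minus that in H-LY29.

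IGF1 and IGF2 are small secreted proteins related to insulin. They signal through IGF1R, a receptor tyrosine kinase that recruits insulin receptor substrates and so activates PI3K and Akt, and the Ras-MAPK cascade. IGF2R, the cation-independent mannose 6-phosphate receptor, takes up IGF2 for degradation and sorts lysosomal enzymes. IGF-binding proteins hold most of the IGF outside cells and can restrain or prolong its action. In white matter IGF1 is known as a survival and differentiation factor for oligodendrocytes.

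Pearson correlations over all probe sets were 0.990 to 0.995 within a dose and 0.882 to 0.892 between doses. The added bacterial poly-A RNAs had a mean signal of 10.22 in L-LY29 and of 3.17 in H-LY29, and the 3′ probe set of actin exceeded its 5′ probe set by 0.43 and 0.92. These technical measures thus separated the arrays the way dose did, and their part in the results below was not tested. The highest mean of a poly-A probe set in H-LY29, 4.14, was taken as the level below which a signal is not read. Pairs of arrays held identical values for 1940 to 8963 probe sets within a dose and for 3206 to 3347 between doses. How these ties arose is not settled, and where arrays of a dose are tied their SD is too small a measure of error, so that the standard errors and p-values there rest more on the spread that limma shares across genes. Of the IGF probe sets, 1419519_at, 1415931_at, 1452108_at and 1421991_a_at had a value that was the same in both doses. Markers of myelinating oligodendrocytes were bright on every array, with array means of 12.35 to 12.58. Markers of the ocular surface epithelium had array means of 8.30 to 10.90 and of 4.01 to 4.33 at the low and the high dose.

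IGF genes were mostly lower at the low dose. Of the 10 genes, each represented by its brightest probe set, 9 were lower in L-LY29, where 46.6% of all 12935 tested genes were, and 1, *Igf2*, was higher, where 27.1% of all were. The 9 include *Igf1r* and *Igf2r*, each of which had called probe sets in both directions. With each gene's second brightest probe set 7 were lower and 3 higher. Together 73.8% of all genes passed the limma test in one direction or the other, so a call by itself sets no gene apart. The median difference was −1.62 over the IGF genes and −0.26 over all tested genes. All 10 had every L-LY29 array on 1 side of both H-LY29 arrays, as did 83.1% of all genes. At the level of probe sets, 26 of the 28 passed the filter on low values. Of these, 20 were lower in L-LY29 (42.9% of all tested probe sets were) and 4 were higher (28.9% of all were). The other 2 did not pass the test. After quantile normalization, which moved the median of all genes to 0.06 and raised the higher genes from 36.8% to 52.1% of all calls, 6 IGF genes were lower and 2 higher. Without H-LY29 replicate 1 there were 5 lower and 3 higher, and without H-LY29 replicate 2, 5 lower and 2 higher.

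**Figure D1:**
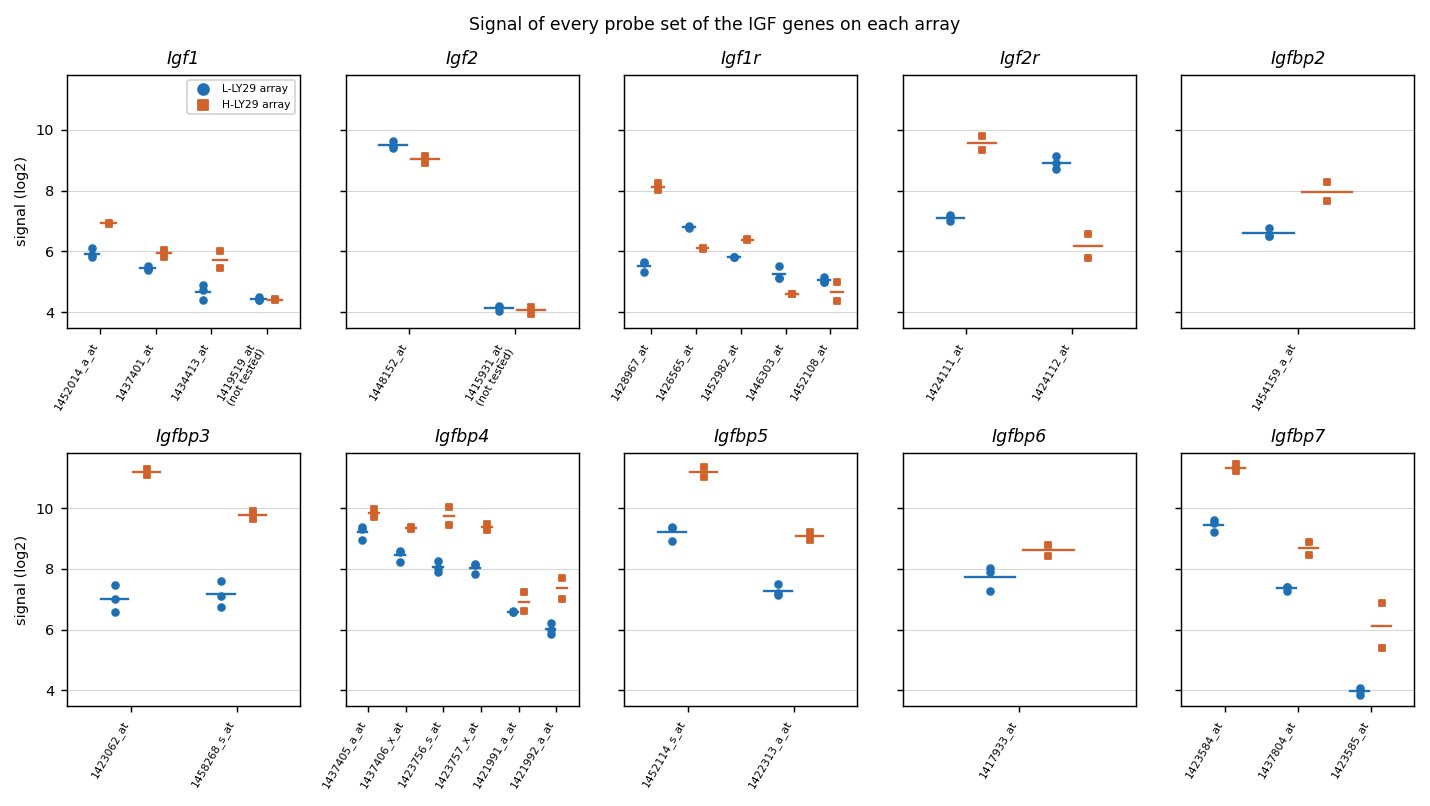
Log2 signal (y axis) of every probe set (x axis) of the 10 IGF genes on 3 L-LY29 arrays (circles) and 2 H-LY29 arrays (squares), with a line at each dose mean. Signals of different probe sets are not comparable with each other. *Igfbp3*, *Igfbp5* and *Igfbp7* lie lower on every L-LY29 array for each of their probe sets, and the 2 probe sets of *Igf2r* lie in opposite order.

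*Igf1*, the ligand of IGF1R with the higher affinity, was lower in L-LY29. Its brightest probe set, 1452014_a_at, had signals of 5.80, 5.87 and 6.10 on L-LY29 replicates 1, 2 and 3, and of 6.95 and 6.89 on H-LY29 replicates 1 and 2. The lowest H-LY29 array lay above every L-LY29 array. The difference was −0.99 (standard error 0.12, adjusted p = 0.00128 by limma), or 1.99-fold. Probe set 1434413_at gave signals of 4.40, 4.91 and 4.71 in L-LY29 and of 6.01 and 5.45 in H-LY29, a difference of −1.05 (SE 0.24, adjusted p = 0.0113 over all probe sets). Probe set 1437401_at gave 5.52, 5.38 and 5.43 against 5.82 and 6.06, a difference of −0.49 (SE 0.12, adjusted p = 0.0146). These 3 probe sets went the same way, with doses that do not overlap. Probe set 1434413_at had an L-LY29 mean of 4.67, under the filter of 4.77, and was tested only because of its H-LY29 signals. A lower call was favoured there, so the agreement rests on 1452014_a_at and 1437401_at. Probe set 1437401_at did not pass after quantile normalization, at −0.20 (adjusted p = 0.205), with equal array medians, at −0.28 (adjusted p = 0.102), or without L-LY29 replicate 2 or 3. Probe set 1434413_at did not pass without H-LY29 replicate 1. Probe set 1419519_at lay below the filter, with means of 4.42 and 4.41. *Igf1* is one of the genes that the study picked from these arrays, so its difference is not independent evidence.

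*Igf2*, the ligand that both receptors bind, was the 1 IGF gene that was higher in L-LY29. Probe set 1448152_at had signals of 9.42, 9.63 and 9.48 in L-LY29 and of 9.15 and 8.92 in H-LY29. The doses did not overlap, but the gap between the nearest arrays was small beside that of *Igf1*. The difference was 0.48 (SE 0.11, adjusted p = 0.0112), or 1.39-fold. It was 0.84 after quantile normalization and 0.69 with equal array medians. It did not pass without H-LY29 replicate 2, at 0.36 (adjusted p = 0.0755). The other probe set, 1415931_at, lay below the filter, with means of 4.13 and 4.05. *Igf2os*, a non-coding RNA that overlaps *Igf2* and was named after its values were seen, was higher in L-LY29, at 5.90, 6.17 and 6.08 against 4.50 and 4.03 (difference 1.78, SE 0.18, adjusted p = 0.000619 over all probe sets). Its H-LY29 mean, 4.27, lay under the filter of 4.77, and H-LY29 replicate 2 lay below the level at which a signal is read. It was tested only because of its L-LY29 signals, so a higher call was favoured and its size is not read as a fold.

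For the receptors, probe sets of the same gene disagreed. *Igf2r* had 2 probe sets. On 1424111_at the signals were 6.99, 7.20 and 7.14 in L-LY29 and 9.82 and 9.35 in H-LY29. On 1424112_at they were 8.90, 9.13 and 8.71 in L-LY29 and 6.56 and 5.78 in H-LY29. The H-LY29 arrays were thus the brighter on the former and the dimmer on the latter, with no overlap on either. The differences were −2.47 (SE 0.16, adjusted p = 0.000165 over all probe sets) and 2.75 (SE 0.27, adjusted p = 0.000545). The probe set shared with *Airn*, an antisense RNA of the *Igf2r* locus, lay below the filter, at 4.32, 4.35 and 4.12 against 3.33 and 2.48. Of 2 tested probe sets of *Airn* alone, 1 was lower in L-LY29, at 5.61, 5.31 and 5.57 against 6.77 and 6.81 (difference −1.30, SE 0.13, adjusted p = 0.000561 over all probe sets), and the other did not pass, at −0.15 (adjusted p = 0.438). The *Igf2r* mean over its 2 probe sets differed by 0.14 (adjusted p = 0.564), so the arrays give no single direction for this receptor.

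*Igf1r*, the signalling receptor, had 5 tested probe sets, of which 2 were lower in L-LY29, 2 were higher and 1 did not pass. Its brightest, 1428967_at, had signals of 5.63, 5.66 and 5.31 in L-LY29 and of 8.24 and 8.02 in H-LY29, a difference of −2.60 (SE 0.15, adjusted p = 0.00012). Probe set 1452982_at was lower as well, at −0.57 (SE 0.09, adjusted p = 0.00257), with means of 5.82 and 6.39. Probe set 1426565_at went the other way, at 6.84, 6.76 and 6.81 in L-LY29 and 6.11 and 6.09 in H-LY29, a difference of 0.71 (SE 0.09, adjusted p = 0.0012). Probe set 1446303_at was also higher, at 0.66 (SE 0.16, adjusted p = 0.0138), and 1452108_at did not pass, at 0.37 (95% interval −0.17 to 0.91). The H-LY29 mean of 1446303_at, 4.59, lay under the filter of 4.77. It was tested only because of its L-LY29 signals, so a higher call was favoured there. Probe set 1452982_at did not pass after quantile normalization, and 1446303_at did not pass without either H-LY29 array. Which probe set was the brightest changed with quantile normalization and without either H-LY29 array. There 1426565_at stood for *Igf1r*, with differences of 1.14, 0.72 and 0.70. Disagreement of this kind was common on these arrays. Called probe sets went in both directions for 1811 of the 4182 genes with at least 2 of them (43.3%), and for 2 of the 7 such IGF genes. The gap between the highest and the lowest called difference was 5.22 for *Igf2r* and 3.30 for *Igf1r*, against a median of 2.67 over the genes that went both ways. The transcript part that each probe set reads was not analysed here.

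**Figure D2:**
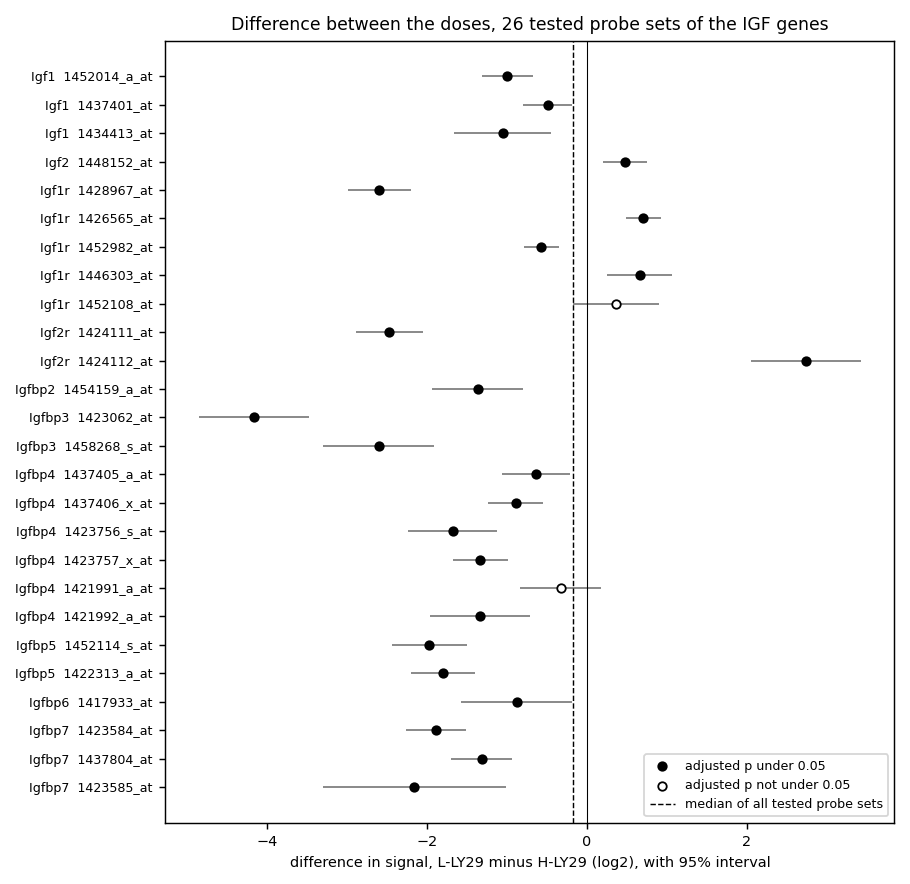
Difference in log2 signal, L-LY29 minus H-LY29 (x axis), with its 95% interval, for the 26 tested probe sets of the IGF genes (y axis). Filled points passed the test, and the dashed line is the median of all tested probe sets, −0.18. Points of *Igf1r* and *Igf2r* lie on both sides of 0, and called points of *Igf1* and of every binding protein lie below it.

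The promoters of *Igfbp3*, *Igfbp5* and *Igfbp7*, the binding proteins with the largest differences, are shown to let their sequences be compared. Each is the 250 bases before the annotated start, 5′ to 3′ on the gene's strand, from RefSeq on GRCm38.p6. They lie at chr11:7213924-7214173, chr1:72874866-72875115 and chr5:77408046-77408295, all on the minus strand. Capitals mark GC boxes (GGGCGG on either strand), the motif of Sp factors.
Igfbp3: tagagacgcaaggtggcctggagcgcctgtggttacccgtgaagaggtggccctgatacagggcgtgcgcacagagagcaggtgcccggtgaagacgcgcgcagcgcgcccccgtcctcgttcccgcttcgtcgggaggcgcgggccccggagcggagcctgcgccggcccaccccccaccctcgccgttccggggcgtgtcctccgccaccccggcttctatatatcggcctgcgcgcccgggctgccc
Igfbp5: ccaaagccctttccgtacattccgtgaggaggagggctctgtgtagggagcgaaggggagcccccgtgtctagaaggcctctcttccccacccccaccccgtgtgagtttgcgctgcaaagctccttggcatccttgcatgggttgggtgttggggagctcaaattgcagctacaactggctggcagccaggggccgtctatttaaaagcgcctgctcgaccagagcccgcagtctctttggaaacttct
Igfbp7: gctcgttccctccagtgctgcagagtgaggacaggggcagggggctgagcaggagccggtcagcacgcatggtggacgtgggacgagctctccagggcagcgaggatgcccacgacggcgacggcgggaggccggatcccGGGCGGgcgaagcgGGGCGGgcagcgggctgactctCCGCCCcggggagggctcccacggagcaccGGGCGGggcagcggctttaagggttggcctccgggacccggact
The *Igfbp7* window holds 4 GC boxes, and those of *Igfbp3* and *Igfbp5* hold 0. Their GC contents are 74%, 73.2% and 58.8%, where the median of all 32851 windows is 52.4%. All 10 genes had a window, 14 in all. A GC box lay in 6 of these, in *Igf1r*, *Igf2*, *Igf2r*, *Igfbp2* and *Igfbp7*, and in 32.7% of all windows. TATAAA lay in 2, in *Igfbp4* and *Igfbp6*, and in 12.4% of all. The FoxO core GTAAACA lay in 0 of the 14 and in 3.17% of all. Both strands were searched for each motif, and windows of the same gene can overlap.

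*Igfbp3*, the main IGF carrier of the circulation, had the largest difference of the IGF genes. On 1423062_at its signals were 6.60, 7.004 and 7.47 in L-LY29 and 11.09 and 11.30 in H-LY29. The difference was −4.17 (SE 0.27, adjusted p = 0.000156), or 17.98-fold, which is the 0.734 percentile of the differences of all tested genes. On 1458268_s_at the signals were 6.76, 7.12 and 7.62 against 9.91 and 9.64, a difference of −2.60 (SE 0.27, adjusted p = 0.000681 over all probe sets). Its probe sets thus gave the same order of arrays within L-LY29 and the same direction between the doses, with sizes whose 95% intervals (−4.86 to −3.48 and −3.30 to −1.91) do not overlap. The L-LY29 arrays spread more for *Igfbp3* (SD 0.43) than for any other binding protein.

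*Igfbp5*, which binds the extracellular matrix as well as IGF, was lower on each of its 2 probe sets. Signals of 1452114_s_at were 8.93, 9.34 and 9.40 in L-LY29 and 11.36 and 11.02 in H-LY29, a difference of −1.97 (SE 0.18, adjusted p = 0.000472) or 3.92-fold. On 1422313_a_at the difference was −1.80 (SE 0.16, adjusted p = 0.000375 over all probe sets), with means of 7.28 and 9.08. The 95% intervals of the 2 sizes, −2.44 to −1.50 and −2.21 to −1.40, overlap. *Igfbp2*, which lies beside *Igfbp5* on chromosome 1, has 1 probe set, with signals of 6.52, 6.50 and 6.79 in L-LY29 and of 8.28 and 7.65 in H-LY29. It was lower by −1.37 (SE 0.22, adjusted p = 0.00341), a 2.58-fold difference, in a spread of H-LY29 arrays (SD 0.45) wider than that of *Igfbp5* (SD 0.24).

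*Igfbp7*, a secreted protein with low affinity for IGF that is abundant in vessels, was lower on each of its 3 probe sets. Signals of 1423584_at were 9.22, 9.51 and 9.62 in L-LY29 and 11.45 and 11.22 in H-LY29, a difference of −1.88 (SE 0.15, adjusted p = 0.000257) or 3.69-fold. On 1437804_at the difference was −1.32 (SE 0.15, adjusted p = 0.000882 over all probe sets). On 1423585_at it was −2.16 (SE 0.45, adjusted p = 0.00852), but the L-LY29 mean of 3.97 there is no higher than poly-A probe sets at the high dose, and that size is not read as a fold. That probe set passed the filter of 4.77 only because of its H-LY29 signals, so a lower call was favoured there.

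*Igfbp4*, a binding protein known to inhibit IGF action until it is cleaved, had 6 tested probe sets, of which 5 were lower and 1 did not pass. The brightest, 1437405_a_at, had signals of 8.94, 9.31 and 9.39 in L-LY29 and of 9.97 and 9.73 in H-LY29, a difference of −0.63 (SE 0.16, adjusted p = 0.0185). It was the smallest of the called differences of this gene. The others were −0.89 on 1437406_x_at, −1.33 on 1423757_x_at, −1.33 on 1421992_a_at and −1.68 on 1423756_s_at. Probe set 1421991_a_at did not pass, at −0.33 (95% interval −0.83 to 0.18). The call on the brightest was lost after quantile normalization, at −0.33 (adjusted p = 0.109), and with equal array medians, at −0.42 (adjusted p = 0.0523). It was also lost without H-LY29 replicate 1, at −0.51 (adjusted p = 0.159), and without H-LY29 replicate 2, at −0.75 (adjusted p = 0.0768). The other 4 called probe sets passed under all of these.

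*Igfbp6*, which prefers IGF2 to IGF1, has 1 probe set. Its signals were 7.27, 7.89 and 8.05 in L-LY29 and 8.79 and 8.43 in H-LY29, a difference of −0.88 (SE 0.27, adjusted p = 0.0331). The arrays did not overlap, but the spread within L-LY29 (SD 0.41) was close to the gap between the nearest arrays of the doses. It did not pass after quantile normalization, at −0.41 (adjusted p = 0.194), or with equal array medians, at −0.66 (adjusted p = 0.0594). It did not pass without H-LY29 replicate 1, without H-LY29 replicate 2 or without L-LY29 replicate 2, at −0.69, −1.06 and −0.95 (adjusted p = 0.232, 0.114 and 0.064).

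**Figure D3:**
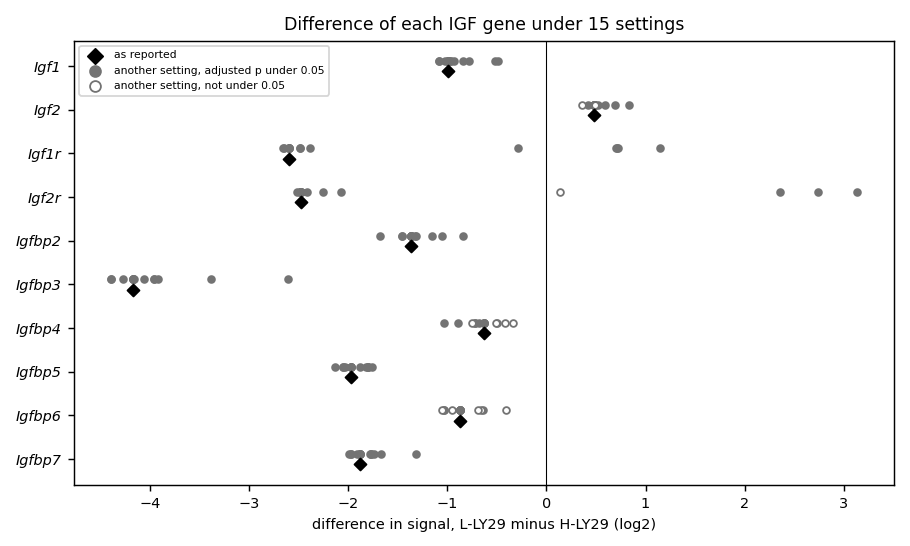
Difference of each IGF gene in log2 signal, L-LY29 minus H-LY29 (x axis), as reported (diamonds) and under 14 other settings (circles, open where the adjusted p is not under 0.05). *Igf1*, *Igfbp2*, *Igfbp3*, *Igfbp5* and *Igfbp7* stay below 0 with filled circles, and *Igf1r* and *Igf2r* lie on both sides of 0.

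Within a dose most IGF genes had the same lowest or higher array. Among the L-LY29 arrays, 8 of the 10 were lowest on replicate 1, where 33.1% of all tested genes were. That share is of all 12935 genes, of which 2363 had a tied lowest value, while 0 of the IGF genes had one. Between the H-LY29 arrays, 9 of 10 were higher on replicate 1, where 54.4% of all genes were. Of the 26 tested IGF probe sets, 16 were lowest on L-LY29 replicate 1 and 23 higher on H-LY29 replicate 1. Shares over all probe sets were not computed, so these counts are not read further. The mean signal over the 10 genes was 7.53, 7.79 and 7.87 on L-LY29 replicates 1, 2 and 3 and 9.51 and 9.25 on H-LY29 replicates 1 and 2. Most members thus shared the lowest L-LY29 array and the higher H-LY29 array, though not the full order of the arrays. In these means the step between the doses was larger than the steps within them.

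Other genes of the pathway, from lists written from general knowledge, went in both directions. Of 48 tested, 13 were higher and 25 lower in L-LY29, where 27.1% and 46.6% of all tested genes were, and 10 did not pass. Their median was −0.31, against −0.26 for all genes. After quantile normalization 20 were higher and 23 lower, and with the second brightest probe set 18 were higher and 16 lower.

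**Figure D4:**
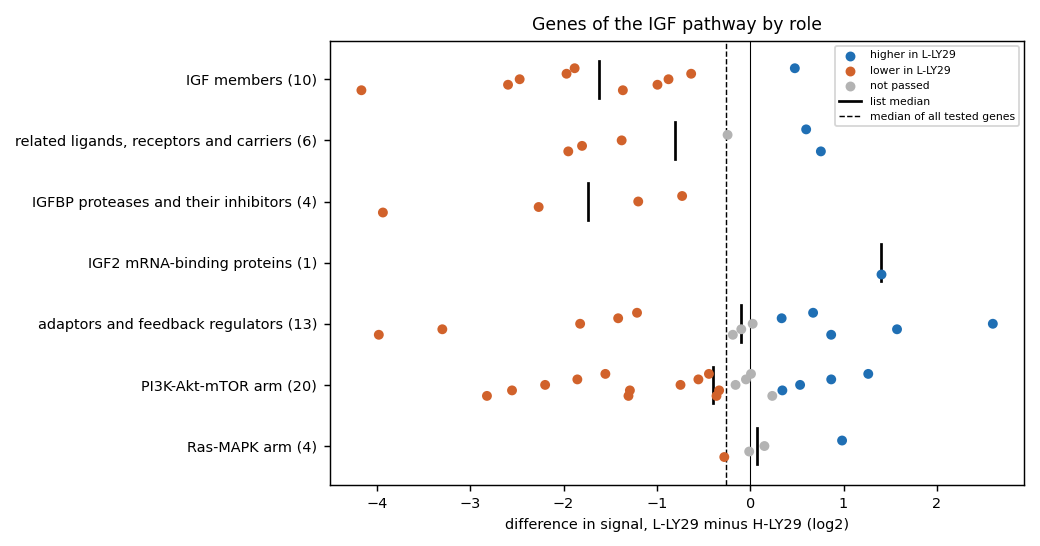
Difference in log2 signal, L-LY29 minus H-LY29 (x axis), of each tested gene of the IGF pathway by role (y axis, number of tested genes in brackets), with list medians as bars and a dashed line at the all-gene median. The 4 tested IGFBP proteases and inhibitors lie below 0, and adaptors and genes of the PI3K-Akt-mTOR arm lie on both sides of it.

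Among related ligands, receptors and carriers, 3 of 6 tested genes were lower and 2 were higher, where 46.6% and 27.1% of all tested genes were. *Insr*, the insulin receptor, had signals of 6.55, 6.59 and 6.99 in L-LY29 and of 8.76 and 8.56 in H-LY29, a difference of −1.95 (SE 0.17, adjusted p = 0.000388). Like the IGF receptors it had called probe sets in both directions, and with its second brightest the difference was 1.52. *Ghr*, the growth hormone receptor, and *Lrp1*, a scavenger receptor that binds IGFBP3, were lower, at −1.80 (adjusted p = 0.00459) and −1.38 (adjusted p = 0.00188). *Ghr* did not pass with its second brightest probe set or without H-LY29 replicate 1. *Ins2* and *M6pr*, the cation-dependent mannose 6-phosphate receptor, were higher, at 0.76 (adjusted p = 0.00112) and 0.60 (adjusted p = 0.00118). *Igfbpl1* did not pass, at −0.24 (95% interval −1.81 to 1.32). *Igfbp1*, a classical FoxO target, gave 3.06 on all 5 arrays and lay below the filter.

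The proteases that cleave IGF-binding proteins, and their inhibitors, were lower in L-LY29 for each of the 4 genes tested, where 46.6% of all tested genes were. *Adam12*, a metalloprotease that cleaves IGFBP3 and IGFBP5, had signals of 5.66, 5.30 and 5.87 in L-LY29 and of 9.85 and 9.24 in H-LY29. The arrays did not overlap, and the difference was −3.94 (SE 0.26, adjusted p = 0.000163). *Stc1* and *Stc2*, the stanniocalcins that inhibit pappalysins, were at −2.27 (adjusted p = 0.00221) and −1.20 (adjusted p = 0.00649). *Htra1*, a serine protease that cleaves IGFBP5, was at −0.73 (SE 0.14, adjusted p = 0.00586). *Stc2* was at 0.15 with its second brightest probe set, and *Htra1* did not pass with its second brightest or without H-LY29 replicate 2. *Pappa* and *Pappa2*, the pappalysins themselves, lay below the filter. Of the proteins that bind *Igf2* mRNA, *Igf2bp3* was tested and was higher, at 1.40 (SE 0.08, adjusted p = 0.000131), but did not pass with its second brightest probe set.

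Adaptors of the receptors were as often higher as lower, 5 and 5 of 13 tested, with 3 not passing (*Gab1*, *Sos2* and *Socs3*). Of all tested genes 27.1% were higher and 46.6% lower. The 2 main insulin receptor substrates differed in opposite directions. *Irs1* had signals of 6.45, 5.57 and 6.50 in L-LY29 and of 9.59 and 9.36 in H-LY29, a difference of −3.30 (SE 0.32, adjusted p = 0.00054). *Irs2* had signals of 9.07, 8.93 and 8.86 in L-LY29 and of 7.41 and 7.35 in H-LY29, a difference of 1.57 (SE 0.09, adjusted p = 0.000116). Each rests on 1 tested probe set, and each kept its direction under all 14 other settings. The settings that change the probe set of a gene could not alter these differences. *Grb10*, an adaptor that restrains IGF1R and the insulin receptor, was lower, at 6.75, 7.36 and 6.93 against 11.18 and 10.81 (difference −3.98, SE 0.22, adjusted p = 0.00011). *Ptpn1*, the phosphatase PTP1B that dephosphorylates these receptors, was higher, at 9.56, 9.56 and 9.62 against 7.15 and 6.81 (difference 2.60, SE 0.12, adjusted p = 7.08e-05). *Ptpn11*, which encodes SHP2, *Grb2* and *Grb14* were higher too, at 0.67, 0.87 and 0.34, and *Grb14* did not pass when any 1 of the L-LY29 arrays was left out. *Sos1*, *Shc1* and *Socs2* were lower, at −1.82, −1.21 and −1.42. *Grb2*, *Sos1* and *Socs2* changed sign with their second brightest probe set. *Socs2* also changed sign without either H-LY29 array, reaching 1.74 at most over these settings, and did not pass with the mean of its probe sets.

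In the PI3K-Akt-mTOR arm 12 of 20 tested genes were lower in L-LY29 and 4 were higher, where 46.6% and 27.1% of all tested genes were. The other 4 did not pass. *Gsk3b*, a kinase that Akt inhibits, differed by −2.82 (SE 0.09, adjusted p = 4.4e-05). Of its 6 probe sets 1 was higher, and its sign changed with its second brightest probe set and without either H-LY29 array. *Foxo3*, a transcription factor that Akt keeps out of the nucleus, was at −2.55 (SE 0.12, adjusted p = 7.17e-05). *Pik3ca*, the alpha catalytic subunit of PI3K, was at −1.29 (SE 0.07, adjusted p = 0.00011), with a change of sign on its second brightest probe set. Higher were *Akt2* at 1.27, *Rheb*, the activator of mTORC1, at 0.87, *Gsk3a* at 0.53 and *Eif4ebp1* at 0.34, the last of which did not pass without L-LY29 replicate 2 or 3. *Mtor* itself was at −0.75 (adjusted p = 0.000539), with 1 probe set lower and 1 higher. The sign of *Mtor* changed with its second brightest probe set, with the mean of its probe sets and without either H-LY29 array. *Pdpk1*, *Tsc2*, *Rptor* and *Rictor* did not pass, and of these *Tsc2*, *Pdpk1* and *Rptor* passed as higher after quantile normalization. The Ras-MAPK arm had 4 tested genes, beside which the same shares of all genes stand. *Nras* was higher, at 0.98 (adjusted p = 0.000222), *Map2k1* was lower, at −0.28 (adjusted p = 0.0119), and *Braf* and *Map2k2* did not pass. After quantile normalization *Braf* and *Map2k2* passed as higher, and with equal array medians *Map2k1* did not pass. The other genes of these counts were tested and are not named.

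Markers of cells that could carry IGF transcripts in a nerve were read against the 46.6% of all genes that were lower and the 27.1% that were higher. In bulk RNA, fewer cells of a type and less RNA per cell cannot be told apart. Of 10 fibroblast markers, 8 were lower in L-LY29, 1 (*Ogn*) was higher and 1 (*Pi16*) did not pass. Their array means were 7.05 to 7.59 at the low dose and 9.25 to 9.67 at the high dose. Of 8 astrocyte markers 5 were lower and 3 did not pass, and of 7 tested pericyte and smooth muscle markers 4 were lower and 3 did not pass. Array means were 8.51 to 9.33 and 10.78 to 10.91 for astrocytes, and 6.63 to 7.02 and 7.72 to 7.89 for pericytes. Endothelial markers went mostly the other way from *Igfbp7*, with 5 of 8 higher, 1 lower and array means of 7.39 to 7.80 and 6.73 to 6.85. Microglia and macrophage markers, which include the cells known to make *Igf1* in the nervous system, were higher for 6 of 10 and lower for 3, with array means of 8.79 to 8.93 and 8.46 to 8.72. OPC markers were at 7.99 to 8.29 and 8.42 to 8.65, with 1 of 8 higher and 3 lower. The shares of pericyte and astrocyte markers that were lower thus lay near or not far above that of all genes, and that of OPC markers below it. By size, median differences were −2.09 for fibroblast, −1.93 for astrocyte and −0.97 for pericyte markers. They were −0.36 for OPC, 0.49 for microglia and 1.04 for endothelial markers, against −1.62 for the IGF genes and −0.26 for all genes. Of the 8 ocular surface markers 7 were higher in L-LY29. *Krt6b*, *Calml3*, *Psca*, *Asprv1* and *Lypd2* had H-LY29 means of 2.82 to 4.39, under the filter of 4.77. A higher call was favoured there, and *Calml3*, *Psca* and *Asprv1* lay below the level at which a signal is read. *Kcnj8* (pericyte) and *Mrc1* (macrophage) had L-LY29 means of 4.33 and 4.41, under the filter, so a lower call was favoured. The mean of the ocular surface markers was highest on L-LY29 replicate 1 (10.90), the array on which most IGF genes were lowest. It was 8.30 and 9.29 on replicates 2 and 3. Fibroblast means were 7.05, 7.17 and 7.59 on L-LY29 replicates 1, 2 and 3 and 9.67 and 9.25 on H-LY29 replicates 1 and 2. This was the order of the IGF means within each dose. H-LY29 replicate 1 also had the higher mean for the other marker lists named here except the endothelial one. That part of the order was therefore not particular to fibroblast markers. Endothelial means had that order within L-LY29 alone, at 7.39, 7.61 and 7.80. Without L-LY29 replicate 1, 9 IGF genes were lower and 1 higher. The ocular surface means of the other L-LY29 arrays still lay above those of H-LY29 (4.01 to 4.33), so this count cannot show the part of that tissue. The part of these cells in the differences of the IGF genes was not tested.

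**Figure D5:**
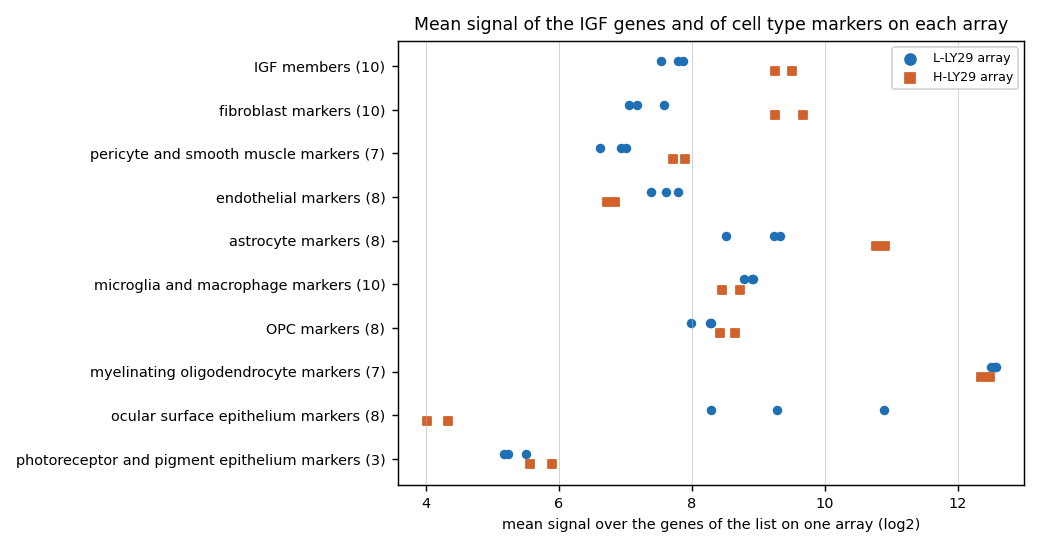
Mean log2 signal (x axis) over the tested genes of each list (y axis, number of genes in brackets) on 3 L-LY29 arrays (circles) and 2 H-LY29 arrays (squares). The IGF genes, fibroblast, pericyte and astrocyte markers lie higher on the H-LY29 arrays, and endothelial and ocular surface markers lie higher on the L-LY29 arrays.

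The genes most like *Igf1* over the 5 arrays, by Euclidean distance between log2 signals centred on each gene's mean, were *Dap3*, *Fh1*, *B3gnt2*, *Etf1* and *Upp1*. Their distances were 0.06 to 0.11, and their differences between the doses were −0.94 to −1.02. A distance under 0.5 was shared by 1839 genes. With 5 arrays in 2 doses this likeness describes mainly the size of the step between the doses.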

How the data were processed

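Per the study's methods the authors hybridised biotinylated cRNA to Affymetrix GeneChip mouse arrays, handled the image files in Affymetrix software and then normalised in GeneSpring GX, naming MAS-5. What was deposited is 1 log2 signal for each of 45101 probe sets on 5 arrays, with no stated scaling target. Many values are identical between arrays, so whether MAS-5 alone made them is not settled. Values were used as deposited. Of the probe sets, 34958 name 1 gene, 932 several and 9211 none in the platform annotation, and 64 are controls. Probe sets with a mean under the 40th percentile (4.77) or naming no single gene were left out of the gene fit. That left 12935 genes, each with its brightest probe set. The probe set fit kept 27001. The comparison used limma (version 3.58.1, R 4.3.3, intensity trend, two-sided) with Benjamini-Hochberg adjustment at 0.05 over all features. Precision is limited by there being 5 arrays. The fit was tested on simulated data. The IGF genes and all lists were chosen with earlier results of these data known. Named were all IGF genes, up to 3 genes of each pathway list with the smallest adjusted p, members behind counts of 5 or fewer, and the 5 genes nearest to *Igf1*. *Igf2os*, *Airn*, *Mtor* and *Igfbp1* were named after their values were seen. Alternatives were the filter, scaling, a floor (30th percentile, 4.12), the trend, a replicate block, the probe set of a gene, and each array left out. Promoters came from RefSeq (GRCm38.p6).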

Additional observations from a re-analysis of the deposited data

How the results depend on the processing

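*Igf1*, *Igfbp2*, *Igfbp3*, *Igfbp5* and *Igfbp7* kept their direction and their call under all 14 alternatives, with differences of −1.08 to −0.49, −1.68 to −0.84, −4.39 to −2.60, −2.14 to −1.76 and −1.996 to −1.32. *Igfbp2* has 1 probe set, so the settings that change the probe set of a gene could not alter its difference. *Igf1r* reversed after quantile normalization (1.14), with the second brightest probe set (0.71) and without H-LY29 replicate 1 (0.72) or 2 (0.70), since probe set 1426565_at then stood for it. *Igf2r* reversed with the second brightest probe set (2.75), without H-LY29 replicate 1 (3.13) or 2 (2.36), where 1424112_at stood for it, and with the mean of its probe sets (0.14). With single arrays left out they ranged from −2.66 to 0.72 and from −2.51 to 3.13. IGF genes higher in L-LY29 numbered 2 after quantile normalization, 0 with the replicate block and 3 with the second brightest probe set, against 1 as reported. Leaving out single arrays gave 1 to 3 higher and 5 to 9 lower. For probe sets it gave 2 (without H-LY29 replicate 2) to 4 higher and 16 to 20 lower, and the replicate block gave 2 higher, against 4 and 20. Of the other pathway genes, 20 were higher after quantile normalization, against 13, and 16 lower with the second brightest probe set, against 25. They ranged from 11 to 18 higher and from 20 to 26 lower with single arrays left out. Arrays of different doses with the same replicate number deviated together at 0.0089 and 0.0202 only, so the numbers were not taken as pairs. With the block *Igf2* did not pass, at 0.49 (adjusted p = 0.0565), and no other call on the 10 genes changed, though probe sets 1437401_at and 1446303_at lost theirs. Where an array of H-LY29 was left out, the spread of the lone array was taken from L-LY29. With 2 arrays of H-LY29 and no detection calls used here, small differences at low signal could not be resolved.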
